A study of Caenorhabditis elegans with 2 samples.

Results

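The regions described here are the loci of the transfer RNA (tRNA) genes of Caenorhabditis elegans, as bound or not bound by the protein F16B12.6. All genes with the biotype tRNA on the 6 nuclear chromosomes of the Ensembl release 115 annotation (WBcel235, the assembly also called ce11) were taken, which gave 612 of 46890 annotated genes. The rule uses annotation alone, though tRNA genes were picked as a class with earlier results of these data known. Each gene was searched from 500 bp upstream to 500 bp downstream of its annotated 5' end, and distances of 100, 200 and 500 bp were used.

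Chromatin immunoprecipitation with sequencing (ChIP-seq) was directed against an eGFP-tagged copy of F16B12.6, whose function the labels do not give. The animals were whole larvae of mixed sex in the first larval stage (L1), of strain OP114, which carries the allele unc-119(tm4063) on chromosome III and the transgene wgIs114. There was 1 group of 2 biological replicates from separate biosamples, with no second genotype, treatment or time point. Whole animals were used, so occupied sites in few cells and weaker occupancy in many cells cannot be told apart, and the tagged protein is made from the transgene.

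The deposited results are lists of genomic entries, each with a start, an end, a summit and a signal value, which is the strength that the authors' caller gave the entry. Signal values have no stated scale and served to order the entries of 1 list, never to compare lists. Rank 1 is the highest signal value of a list. Relaxed lists, in which peaks stand together with background, hold 30000 entries each for replicate 1, replicate 2 and the pooled replicates. The thresholded list is made of the strongest pooled entries that the authors kept by their reproducibility analysis, 49 peaks near tRNA genes and 2134 others. No source used here states read numbers, so the depth of an entry is unknown, and intervals cover counting error only. The strongest entries of a replicate, equal in number to the thresholded peaks, are called its top entries below.

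Transfer RNA genes are transcribed by RNA polymerase III from promoters that lie inside the gene. The factor TFIIIC binds the internal A box and B box, which encode the D arm and the T arm of the tRNA, and then places TFIIIB just upstream of the start. TFIIIB recruits the polymerase, which stops in a run of T after the gene. The genes are short, occur in many identical copies, and in C. elegans are scattered over all chromosomes with many on the X and many inside introns of protein-coding genes.

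The sequences that follow are those of tRNA genes with high signal values, of identical gene copies with and without a peak, and of 1 weaker member with an intron. Each line runs 5' to 3' on the gene's strand, with 30 bases before the gene and 20 bases after it, from RefSeq for WBcel235. Capitals mark a match to an A box core, GNNNAG within gene bases 8 to 24, and to a B box core, GTTCNANNC from base 31 on. W09D6.t2 (chrIII:11066828-11066949, minus strand) and W09D6.t1 (chrIII:11066997-11067118, plus strand) are divergent proline tRNA genes that share the strongest tRNA peak. ZK970.t2 (chrII:10304981-10305102, plus strand) has the same gene sequence and no summit within 500 bp in any list.
W09D6.t2: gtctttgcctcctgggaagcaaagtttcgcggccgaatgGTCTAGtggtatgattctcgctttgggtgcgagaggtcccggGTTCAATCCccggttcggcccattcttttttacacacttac
W09D6.t1: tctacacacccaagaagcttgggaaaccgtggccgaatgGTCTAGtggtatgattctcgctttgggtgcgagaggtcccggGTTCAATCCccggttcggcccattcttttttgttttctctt
ZK970.t2: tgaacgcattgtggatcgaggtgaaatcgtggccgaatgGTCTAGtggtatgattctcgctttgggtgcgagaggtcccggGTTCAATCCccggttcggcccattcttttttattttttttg
The next strongest are K04C2.t3 for lysine (chrIII:6887708-6887830, minus strand), C24H11.t1 for threonine (chrIII:11792752-11792873, plus strand) and C04E7.t1 for leucine (chrX:353235-353366, minus strand).
K04C2.t3: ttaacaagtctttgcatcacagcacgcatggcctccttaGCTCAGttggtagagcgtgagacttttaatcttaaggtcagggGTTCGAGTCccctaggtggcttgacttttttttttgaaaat
C24H11.t1: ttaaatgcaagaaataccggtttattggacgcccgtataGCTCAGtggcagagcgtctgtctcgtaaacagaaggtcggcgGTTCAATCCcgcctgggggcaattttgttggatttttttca
C04E7.t1: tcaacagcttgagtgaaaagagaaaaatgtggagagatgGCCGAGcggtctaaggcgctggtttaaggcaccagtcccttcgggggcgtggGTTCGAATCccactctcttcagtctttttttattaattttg
The tryptophan genes B0523.t1 (chrIII:8678477-8678598, minus strand) and C03B1.t1 (chrX:6371348-6371469, plus strand) are identical copies, of which the first had a thresholded peak and the second fell just short of the threshold. Neither has a match to the A box core as searched.
B0523.t1: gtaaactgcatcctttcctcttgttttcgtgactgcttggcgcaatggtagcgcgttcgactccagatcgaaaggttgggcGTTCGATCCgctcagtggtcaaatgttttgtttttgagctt
C03B1.t1: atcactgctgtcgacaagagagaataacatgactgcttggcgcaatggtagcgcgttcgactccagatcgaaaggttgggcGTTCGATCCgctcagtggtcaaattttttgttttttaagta
Leucine gene C14B9.t2 (chrIII:8109573-8109744, plus strand) is the longest shown and holds an intron between its boxes.
C14B9.t2: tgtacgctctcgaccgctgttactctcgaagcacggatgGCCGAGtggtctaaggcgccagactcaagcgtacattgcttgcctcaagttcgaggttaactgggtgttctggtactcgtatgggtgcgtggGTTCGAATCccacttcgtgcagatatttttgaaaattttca
The isoleucine genes C27A2.t1 (chrII:5057427-5057550, minus strand), T21B4.t1 (chrII:12494711-12494834, plus strand) and F33G12.t1 (chrII:5032741-5032864, plus strand) carry the same gene sequence in different flanks, and all had thresholded peaks.
C27A2.t1: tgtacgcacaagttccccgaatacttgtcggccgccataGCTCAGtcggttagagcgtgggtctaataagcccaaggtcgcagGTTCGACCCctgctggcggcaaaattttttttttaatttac
T21B4.t1: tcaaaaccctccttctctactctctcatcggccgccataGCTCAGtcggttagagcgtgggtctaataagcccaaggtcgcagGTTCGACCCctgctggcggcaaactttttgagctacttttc
F33G12.t1: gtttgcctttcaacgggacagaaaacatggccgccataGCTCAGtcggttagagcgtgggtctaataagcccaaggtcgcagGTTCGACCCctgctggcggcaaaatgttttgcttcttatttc
F33G12.t1 was counted among sequences found once because its annotated start is shifted: the sequence of the 19 identical isoleucine genes starts at relative position -1 bp.

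Most of the 612 genes carried recognisable internal promoter elements. In the first 90 bp of the gene strand, 551 genes (95% Wilson interval 87.4 to 92.2%) had the A box core, 580 (94.8%, 92.7 to 96.3%) the B box core and 522 (85.3%, 82.3 to 87.9%) both. The same 90 bp at the 5' ends of the 19973 protein-coding genes held the A box core in 10.7%, the B box core in 1.24% and both in 0.140%. Counting either strand gave 90.4%, 94.9% and 85.3% for tRNA genes and 22.5%, 2.20% and 0.230% for protein-coding genes. A run of 4 T lay within the 20 bp after the gene in 602 tRNA genes (98.4%). A match is a description of letters and not of a used site.

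F16B12.6 peaks lay at a minority of tRNA genes, close to the gene start. A thresholded summit lay within 100 bp of the 5' end of 46 of 612 tRNA genes (7.52%, 5.68 to 9.88%), where all annotated genes had 1.61% and protein-coding genes 2.23%. Within 200 bp the count was 50 (8.17%, 6.25 to 10.6%), against 3.33% of all genes and 5.68% of protein-coding genes. Within 500 bp it was 55 (8.99%, 6.97 to 11.5%), against 5.59% and 10.2%. All annotated genes, here and below, include 15363 genes of the biotype piRNA. Of these, 0.0521% had a thresholded summit within 100 bp and 0.215% within 500 bp, which lowers the share of all genes. The tRNA share was above the protein-coding share at 100 bp, and its interval contained the protein-coding share at 500 bp. Of protein-coding genes with a thresholded summit within 500 bp, 21.8% had it within 100 bp, so the comparison at 100 bp also reflects where summits lie. Shares of gene classes were described and not tested against each other. No tRNA gene had more than 1 thresholded summit within 500 bp. The farthest summits inside the window lay 366, 387 and 454 bp from a 5' end, and the nearest outside it at 510, 706 and 720 bp.

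The relaxed list held entries at many more tRNA genes. A pooled relaxed summit lay within 100 bp of 212 tRNA genes (34.6%, 31.0 to 38.5%), against 8.24% of all genes and 8.93% of protein-coding genes. Within 200 bp there were 250 (40.8%, 37.0 to 44.8%), against 16% and 18.9%. Within 500 bp there were 328 (53.6%, 49.6 to 57.5%), against 31.7% and 36.6%. The relaxed list holds background by design, so an entry there is a ranked position and not a called site.

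Other short non-coding gene classes gave different values. A thresholded summit lay within 100 bp of 14.2% (10.9 to 18.2%) of the 346 genes for snoRNAs, which guide RNA modification, and of 10.1% (5.98 to 16.5%) of the 129 genes for snRNAs, which act mainly in splicing. Of 261 microRNA genes, 0.766% had one. In the relaxed list at 100 bp the order of the point values was tRNA at 34.6%, snoRNA at 28.9% (24.4 to 33.9%), snRNA at 16.3% (10.9 to 23.6%) and microRNA at 7.28% (4.71 to 11.1%). None of the 20 nuclear genes annotated as rRNA, among them copies of rrn-4, whose product polymerase III also makes, had a summit within 500 bp in the thresholded, the pooled relaxed or the replicate 2 list, and 2 had one in the relaxed list of replicate 1. The tRNA and snoRNA intervals overlap in the relaxed list.

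Summits centred on the 5' end of the tRNA gene. Among the 55 genes with a thresholded summit within 500 bp, the median position was +4 bp from the 5' end (quartiles -43 and 38 bp), 46 summits (83.6%) lay within 100 bp, 25 (45.5%) lay inside the gene body and 27 lay upstream of it. Protein-coding genes with a thresholded summit within 500 bp had a median of -171 bp (quartiles -274 and -98 bp), with 21.8% within 100 bp. Positions in all classes are relative to annotated 5' ends, which were not checked against transcription starts. The snoRNA median was -56.5 bp and the snRNA median -53.5 bp, and 1.52% and 0% of those genes had the summit in the gene body. Of snoRNA and snRNA genes with a thresholded summit within 500 bp, 74.2% and 72.2% had it within 100 bp, so closeness was shared by these classes.

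In the pooled relaxed list the tRNA profile was highest in the 50 bp that start at the 5' end, with 14.2 summits per 100 genes. In each replicate this bin and the 50 bp just upstream were nearly level, at 10.3 and 10.8 in replicate 1 and at 9.97 and 10.1 in replicate 2. In the pooled list the 50 bp just upstream held 9.15 and the 50 bp after the highest bin held 6.54. Pooled bins from 150 to 400 bp downstream held between 0.327 and 1.80. The bins from 400 to 450 bp and from 450 to 500 bp held 2.94 and 2.12, with 3.59 and 2.45 in replicate 1 and 1.47 and 2.45 in replicate 2. Protein-coding genes peaked between -150 and -100 bp at 3.70 summits per 100 genes. All 49 thresholded peaks at tRNA genes were 250 bp wide with the summit at the midpoint, so the summit position of these peaks is the peak centre. Among the other thresholded peaks of the same rank range, 97.9% had this width.

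**Figure D1:**
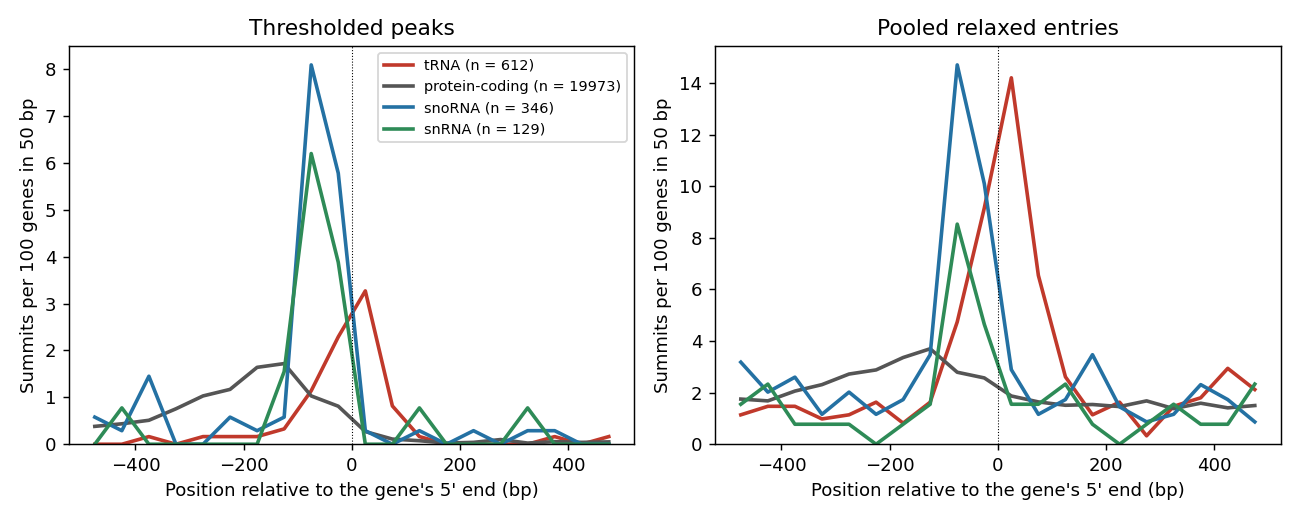
Summits per 100 genes in 50 bp bins against position relative to the 5' end (bp), for thresholded peaks on the left and pooled relaxed entries on the right, with 1 line per gene class. The tRNA line reaches 3.27 and 14.2 per 100 genes in the bin from 0 to 50 bp, whereas snoRNA, snRNA and protein-coding lines peak upstream of the 5' end.

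The tRNA peaks were of middle and low strength. The 55 genes shared 49 distinct peaks, which are 2.24% of the thresholded list, and 45 of these peaks lay within 100 bp of a tRNA gene. The 45 peaks had signal values from 22.2 to 87.6 (median 28.8), where thresholded peaks with no tRNA gene within 500 bp ranged from 21.7 to 1543 (median 49.0). Ranks of the 49 ran from 670 to 2143. None of the 500 strongest pooled entries had a tRNA 5' end within 100 bp (upper interval bound 0.762%). The share was 0.400% at ranks 501 to 1000, 2.80% at 1001 to 1500 and 4.25% (2.97 to 6.03%) from rank 1501 to the threshold.

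Below the threshold the share in the pooled list did not drop at once. From the threshold to rank 3000 it was 4.53% (3.30 to 6.18%), at 3001 to 5000 it was 2.55%, and from 20001 to 30000 it was 0.170% (0.106 to 0.272%). Of the 212 genes with a pooled summit within 100 bp, 137 had one at rank 5000 or better, and the median best rank was 3576. Replicate 1 reached its highest share, 3.81%, and replicate 2 its highest, 4.25%, in the class that ends at the threshold. In the next class, up to rank 3000, the shares were lower, at 2.69% in replicate 1 and 2.82% in replicate 2.

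**Figure D2:**
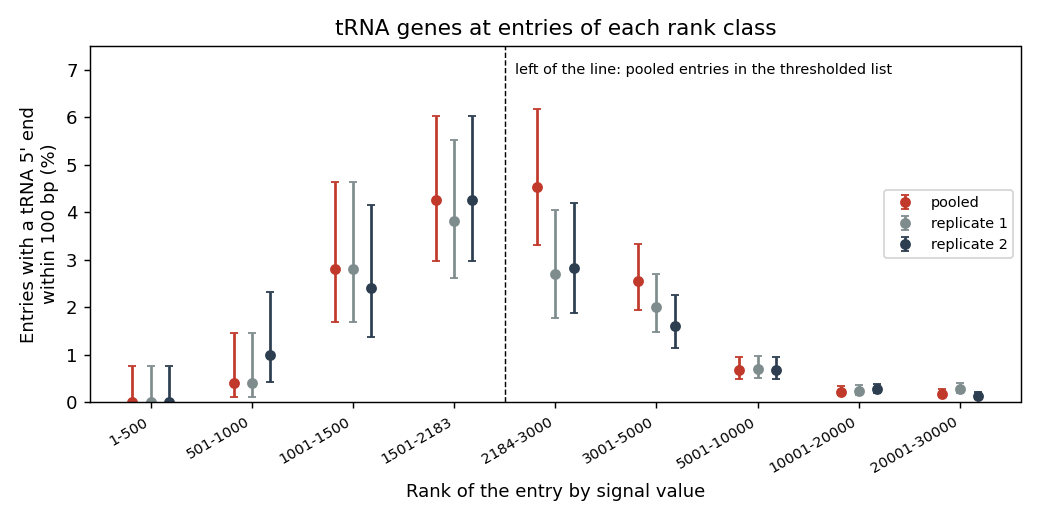
Percent of entries with a tRNA 5' end within 100 bp, by rank class of the entry, for the pooled list and each replicate, with 95% Wilson intervals. All lists start at 0% in the 500 strongest entries and end below 0.3%. Each replicate is highest in the class from rank 1501 to the threshold, and the pooled list in the next class, up to rank 3000.

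The proline genes W09D6.t1 and W09D6.t2 shared the strongest tRNA peak. They lie on opposite strands of chromosome III inside an intron of rsa-2, a gene of spindle assembly, and each has 24 identical copies counting itself. The peak (chrIII:11066836-11067085) had its summit between their 5' ends, at relative positions of -66 bp for W09D6.t1 and -42 bp for W09D6.t2. Its signal value was 87.6 (rank 670) in the pooled list, 57.6 (rank 646) in replicate 1 and 27.4 (rank 814) in replicate 2. Both replicates therefore placed it among their 1000 strongest entries. Of the 24 copies, 4 had a pooled summit within 100 bp, and at least 13 copies had no summit within 500 bp in any list, ZK970.t2 among them.

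K04C2.t3, a lysine gene in an intron of the BARD1-like gene brd-1, had the next peak (chrIII:6887704-6887953), with its summit at -29 bp. The pooled signal value was 60.8 (rank 893), with 28.5 (rank 1125) in replicate 1 and 32.2 (rank 702) in replicate 2. Neighbouring glycine genes K04C2.t1 and K04C2.t2 in introns of the same gene shared a weaker peak of pooled signal 26.9 (rank 1817), with best ranks within 500 bp of 1393 in replicate 1 and 8489 in replicate 2, and are named after these values were seen. The K04C2 locus thus held a peak that ranked high in both replicates beside 1 that ranked high in only the first of them.

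C24H11.t1 for threonine had a summit at 20 bp inside the gene, with a pooled signal value of 50.6 (rank 1040), 35.8 (rank 921) in replicate 1 and 10.5 (rank 1913) in replicate 2. This summit also lies in the promoter window of C24H11.2. C04E7.t1 for leucine, on the X, had a summit at -24 bp, in the promoter window of sor-3, with 49.4 (rank 1066) pooled, 29.7 (rank 1090) in replicate 1 and 14.4 (rank 1427) in replicate 2. These 5 genes of the W09D6, K04C2, C24H11 and C04E7 loci are the only ones of the 55 in the stronger part of the thresholded list when it is split at its middle rank.

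Among the other strong members, most lay in introns with the summit within 100 bp. W09G10.t1 for histidine, in an intron of the collagen gene col-72, had a signal value of 45.6 with its summit at -44 bp, which also lies in the promoter window of W09G10.9. F33G12.t1 for isoleucine, in an intron of F33G12.3, had 45.3 at 60 bp, and F10C1.t2 for leucine, in an intron of the DM domain gene dmd-5, had 40.5 at -22 bp. K08E7.t1 for lysine, in an intron of the P-glycoprotein gene pgp-1, had 39.5 at 25 bp. Inside introns on chromosome I lay F47G6.t1 for arginine (46.4 at -91 bp, in the myosin gene spe-15), C37A2.t1 for cysteine (40.1 at -14 bp, in the cyclin E gene cye-1) and F22G12.t1 for valine (40.1 at -41 bp, in F22G12.4).

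Some high values belonged to summits away from the gene. C18A11.t2 for arginine had a peak of signal 47.1 at 387 bp downstream of its 5' end, C28G1.t1 for glutamate 44.5 at -161 bp in the promoter windows of the exocyst gene sec-15 and of C28G1.2, and Y38E10A.t1 for alanine 41.6 at -223 bp in the windows of Y38E10A.22 and Y38E10A.24. None of these 3 entered at the 100 bp distance. C28G1.t1 entered at 200 bp, and C18A11.t2 and Y38E10A.t1 entered only at 500 bp.

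The most central summits had values from the middle to the bottom of the thresholded range. ZK622.t1 for alanine had its summit at -2 bp with a pooled signal value of 22.5 (rank 2123), and 14.6 (rank 2011) in replicate 1, while replicate 2 had no entry within 100 bp of that summit but a top entry (signal value 10.5, rank 1918) at 131 bp from the 5' end. Its pooled summit lies in the promoter window of ZK622.4. B0523.t1 for tryptophan, in an intron of the flightless gene fli-1, had its summit at 4 bp with 39.2 (rank 1302) pooled, 27.0 (rank 1175) in replicate 1 and 14.4 (rank 1422) in replicate 2. F14F7.t1 for threonine, at -5 bp, had 27.3 pooled, 13.7 in replicate 1 and 14.3 in replicate 2. B0523.t1 and F14F7.t1 were at top entries of each replicate.

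Isoleucine genes C27A2.t1 and T21B4.t1, shown above with equal gene sequences, both had summits at -15 bp. C27A2.t1 had a pooled signal value of 30.6, with rank 1220 in replicate 1 and rank 5189 in replicate 2. T21B4.t1, in an intron of the collagen gene col-85, had 27.9, with ranks of 1876 and 1739. M01E5.t1 for lysine (22.4 at 18 bp) and C14B9.t2 for leucine (24.9 at 20 bp) complete the most central summits, and replicate 2 had no entry within 100 bp of the C14B9.t2 summit, its best within 500 bp of the gene being rank 14698. Equal gene sequence did not bring equal replicate ranks in this pair.

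Just below the threshold stood C03B1.t1 for tryptophan (pooled signal value 21.4, rank 2210), C04C11.t1 for glutamate (21.1, rank 2228), F56F3.t1 for arginine (20.9, rank 2243), T14B4.t1 for leucine (20.8, rank 2257) and C15C6.t1 for arginine (20.7, rank 2264). For C03B1.t1 the rank was 8516 in replicate 1 and 1366 in replicate 2. F56F3.t1 had rank 1887 in replicate 1 and no entry within 100 bp of its summit in replicate 2. The summits of these 5 lay within 100 bp of the 5' ends, between -26 and 78 bp.

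Replicates gave similar totals over partly different genes. The top entries of replicate 1 lay within 100, 200 and 500 bp of 43, 50 and 54 tRNA genes, against 1.57%, 3.30% and 5.54% of all genes. Those of replicate 2 lay at 48, 54 and 59 tRNA genes, against 1.55%, 3.14% and 5.35%. All entries of replicate 1 lay at 194, 246 and 328 tRNA genes (31.7%, 40.2% and 53.6%), against 8.18%, 16.2% and 31.5% of all genes. All entries of replicate 2 lay at 179, 225 and 305 (29.2%, 36.8% and 49.8%), against 8.27%, 16.1% and 32.2%.

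Of the 55 genes with a thresholded summit within 500 bp, 44 had a top entry of replicate 1 within 500 bp, 39 had one of replicate 2, 31 (56.4%, 43.3 to 68.6%) had both and 3 had neither. All 55 had some entry within 500 bp in both relaxed lists. Counted by peak and within 100 bp of the summit, 22 of the 45 tRNA peaks (48.9%, 35.0 to 63.0%) had a top entry in both replicates. Among 1425 thresholded peaks of the same rank range with no tRNA gene nearby the figure was 68.6% (66.2 to 71.0%). Here and below, only the range of ranks was matched. The median rank was 1703 for the 45 peaks and 1399 for the 1425, and the part of strength in the difference was not tested. The thresholded list was derived from these replicate lists, so this is a description of how its peaks were composed and not an independent check.

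Across all 612 genes, 106 had an entry within 100 bp in both replicates, which is 54.6% of the genes with one in replicate 1 and 59.2% of those with one in replicate 2, and 345 had none in either. The best ranks of the 106 genes had a Spearman correlation of 0.447 across genes, which is given as a description, since identical and neighbouring genes can share entries and reads.

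**Figure D3:**
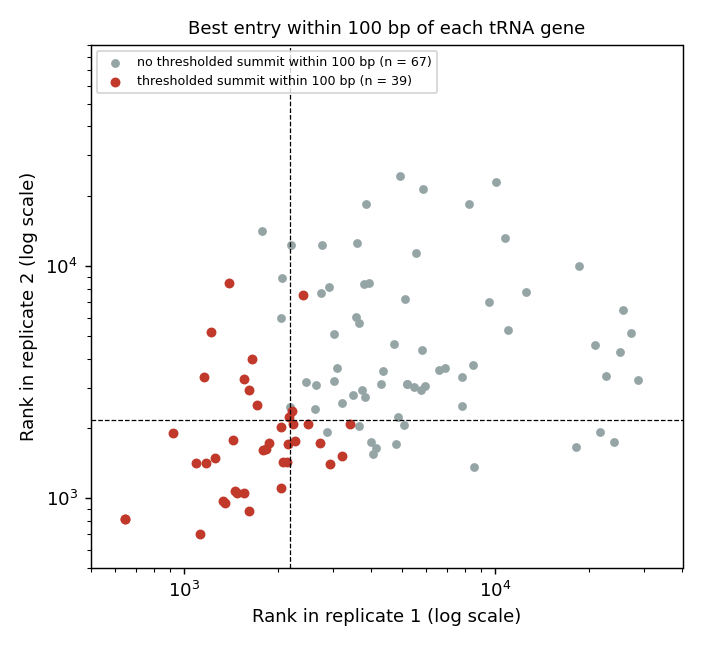
Best rank within 100 bp of each tRNA gene in replicate 1 against replicate 2, on log scales, for the 106 genes with an entry in both; dashed lines mark the last top entry of each replicate. Genes with a thresholded summit within 100 bp (39 red points) gather at the lower left, and W09D6.t1 with W09D6.t2 share the point nearest the corner.

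Most thresholded tRNA summits were not in a promoter window of a protein-coding gene, taken as 1000 bp upstream to 200 bp downstream of its 5' end. Of the 55, 41 lay in no such window and 14 (25.5%, 15.8 to 38.3%) lay in at least 1. The value depends on the window: it was 3.64% with 200 bp upstream and 54.5% with 2000 bp upstream. By peak, 10 of the 45 peaks within 100 bp of a tRNA gene (22.2%, 12.5 to 36.3%) lay in a promoter window, against 77.3% (75.4 to 79.0%) of thresholded peaks with no tRNA gene within 500 bp and 72.7% (70.3 to 75.0%) of those in the same rank range. Of all 612 tRNA 5' ends, 113 (18.5%) lie in such a window, and genes there had a thresholded summit within 100 bp in 8.85% (4.88 to 15.5%) of cases against 7.21% (5.26 to 9.83%) elsewhere. Within 500 bp it was 17 of 113 genes in a window (9.61 to 22.8%) and 38 of 499 elsewhere (7.62%, 5.60 to 10.3%), so summits between 100 and 500 bp away came mostly from genes in a promoter window.

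Sequence at the tRNA summits had a higher median content of G and C, and many of these windows include the tRNA gene. The 100 bp centred on the 45 summits had a median G and C content of 52.0% (upper quartile 55.0%), against 47.0% (upper quartile 53.0%) at summits of the same rank range without a tRNA gene. The hexamer ACGCAG, on either strand, occurred in that window at 9 of the 45 (interval 10.9 to 33.8%) and at 21.1% (19.1 to 23.3%) of the others in the rank range. It was searched because it had been noticed earlier at the promoter peaks of this list, and these intervals overlap.

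Intronic tRNA genes had a higher point share than intergenic ones, with overlapping intervals in each comparison. Location was taken from the 5' end of the tRNA gene. Within 500 bp of a thresholded summit lay 11.0% (7.83 to 15.1%) of intronic and 7.19% (4.84 to 10.6%) of intergenic genes. A thresholded summit lay within 100 bp of 30 of 283 genes in introns of protein-coding genes (10.6%, 7.53 to 14.7%). It did so for 16 of 320 intergenic genes (interval 3.10 to 7.97%) and 0 of 9 genes with the 5' end in an exon. On the host's strand the share was 11.8% (7.69 to 17.7%) and on the opposite strand 9.02% (5.11 to 15.4%). In the relaxed list the shares at 100 bp were 39.6% (34.1 to 45.4%) in introns and 30.6% (25.8 to 35.9%) between genes. Chromosome moves with this split: on autosomes 14.4% (10.1 to 20.1%) of 188 intronic and 6.43% (3.42 to 11.8%) of 140 intergenic genes had a summit, and on the X 3.16% (1.08 to 8.88%) of 95 and 3.89% (1.90 to 7.81%) of 180. The higher intronic value was thus seen on the autosomes, and the difference between autosomes and X in this respect was not tested.

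The X chromosome holds 276 of the 612 tRNA genes and had a low share of them with peaks. Within 500 bp of a thresholded summit lay 14 X-linked tRNA genes (5.07%, 3.05 to 8.33%) and 41 of 336 autosomal ones (12.2%, 9.12 to 16.1%). Protein-coding genes had 4.98% (4.23 to 5.86%) on the X and 11.0% (10.6 to 11.5%) on autosomes. Among autosomes the tRNA share was 25.0% (16 to 36.8%) on III, 19.3% (11.1 to 31.3%) on II, 9.09% on I, 8.45% on IV and 2.56% (0.706 to 8.88%) on V. Protein-coding shares were 18.3% on III, 10.3% on II, 16.4% on I, 9.45% on IV and 5.73% on V. Chromosome III was highest and V lowest among autosomes in both classes. For tRNA genes the intervals were 4.23 to 18.4% on I and 3.93 to 17.2% on IV. The intervals of I, II and IV overlap each other and that of III, and the V interval overlaps those of I and IV.

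In the relaxed list at 100 bp the X had 27.9% (22.9 to 33.5%) and the autosomes 40.2% (35.1 to 45.5%) of their tRNA genes. The protein-coding values were 7.29% and 9.19%. The tRNA shares were above the protein-coding shares on every chromosome by this measure, the lowest being 26.9% (18.3 to 37.7%) on V against 6.61%.

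**Figure D4:**
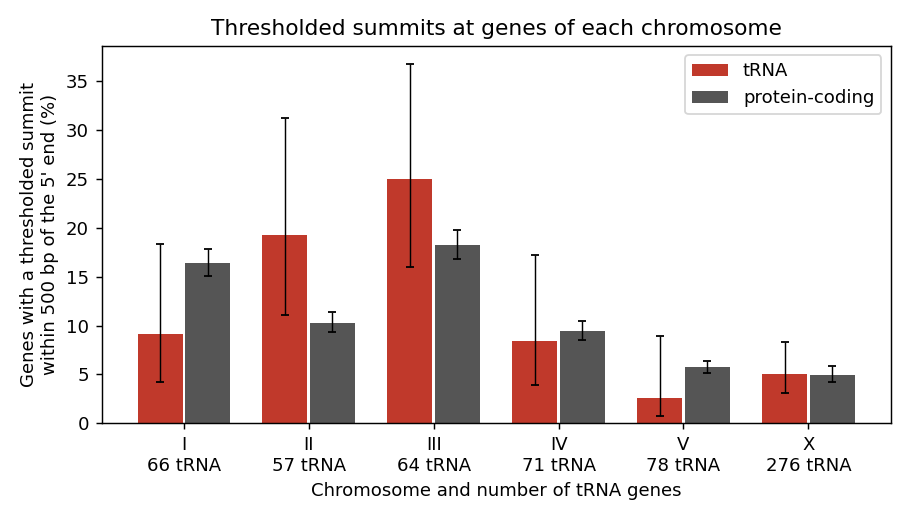
Percent of tRNA and of protein-coding genes with a thresholded summit within 500 bp of the 5' end on each chromosome, with 95% Wilson intervals. Chromosome III has the highest bars in both classes (25.0% and 18.3%), and the X bars are nearly level (5.07% and 4.98%).

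By amino acid, peaks were spread over most kinds of tRNA gene. RefSeq names the product of 607 genes, of 21 kinds, and of 5 it gives none. Leucine genes had the highest share among kinds with more than 1 gene, with a thresholded summit within 100 bp of 7 of 39 (17.9%, 8.98 to 32.7%), followed by isoleucine with 4 of 29 (13.8%) and valine with 4 of 31 (12.9%, 5.13 to 28.9%). No methionine (20), phenylalanine (14) or tyrosine (19) gene had one, and the upper interval bound for methionine was 16.1%. Methionine genes had a relaxed entry within 100 bp in 10 of 20 cases (interval 29.9 to 70.1%), so they were not without entries. For every kind with more than 1 gene the interval contained the overall 7.52%, leucine excepted, whose lower bound is 8.98%. Within 500 bp the leucine interval was the same and contained the overall 8.99%, and among so many intervals 1 that misses the overall share is not unusual.

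The single selenocysteine gene, K11H12.t1, was among the 55 and is named here after its value was seen. Its tRNA reads UGA codons as selenocysteine, and it lies in an intron of K11H12.8 on chromosome IV. The summit was at -66 bp with a pooled signal value of 31.4 (rank 1585), and the nearby best ranks were 1567 in replicate 1 and 1625 in replicate 2. Its pooled and replicate ranks thus lay close together.

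**Figure D5:**
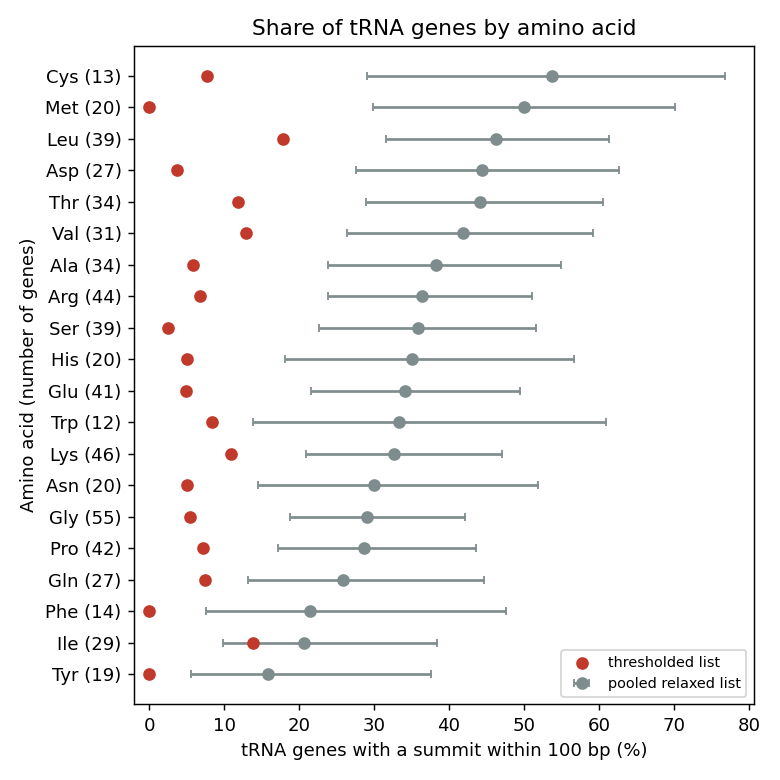
Percent of tRNA genes with a summit within 100 bp by amino acid, for the pooled relaxed list (grey, with 95% Wilson intervals) and the thresholded list (red), for kinds with more than 1 gene. Relaxed shares run from 15.8% for tyrosine to 53.8% for cysteine with wide intervals, and the thresholded share is highest for leucine (17.9%).

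Identical copies of a tRNA gene differed in their entries. The 612 genes had 200 distinct gene sequences, of which 143 occurred once and 57 formed families of 2 to 29 identical genes with 469 genes in all. In 42 of the 57 families some but not all copies had a pooled summit within 100 bp. The largest family, 29 glycine genes, had 12 with a pooled summit and 2 with a thresholded summit within 100 bp, and the 25 identical lysine genes had 10 and 3. A family of 20 glutamate genes had 8 and 0, and a family of 15 threonine genes also had 8 and 0. No source used here says how reads that match several copies were handled, and its part in these counts was not tested.

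Genes with a sequence found once had a relaxed summit within 100 bp in 21.0% (15.1 to 28.4%) of cases, families of 2 to 5 in 41 of 82 cases (39.4 to 60.6%), of 6 to 10 in 37.0% (28.2 to 46.8%) and larger families in 36.2% (30.9 to 41.9%). For thresholded summits the same classes had 6.99%, 11.0%, 3.00% and 8.36%, with overlapping intervals. Single-sequence genes were therefore lowest in the relaxed list and near the overall share in the thresholded list.

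Clustered genes, those with another tRNA 5' end within 500 bp, numbered 159 in 71 clusters of up to 6 genes. They had a thresholded summit within 100 bp in 3.77% (1.74 to 7.99%) of cases, against 8.83% (6.55 to 11.8%) of the 453 others, and a relaxed summit in 25.2% (19.1 to 32.4%) against 38.0% (33.6 to 42.5%). The 29 genes with an intron of their own had a thresholded summit in 3 cases (10.3%, 3.58 to 26.4%). Genes with an A box core match had 7.80% (5.85 to 10.3%) and those without 4.92% (1.69 to 13.5%), with overlapping intervals.

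Protein-coding genes of RNA polymerase III, its factors and tRNA processing were examined by symbol as a list of 34, of which 10 were bound, with a thresholded summit in their promoter window (29.4%, 16.8 to 46.2%), against 11.8% of all protein-coding genes. Among 13 polymerase III factors, 4 had one: snpc-3.4 and snpc-4, subunits of the snRNA-activating complex, with signal values of 526 and 55.6, mafr-1, the homologue of the polymerase III repressor Maf1, with 422, and the TFIIIC gene tftc-1 with 40.5. The snpc genes are not factors of the A box and B box promoter, and their other members snpc-1.1, snpc-1.2, snpc-1.3, snpc-3.1 and snpc-3.2 had none. The other TFIIIC genes tftc-3 and tftc-5, the TFIIIB gene brf-1 and tbp-1 also had none. Among 6 polymerase subunits, the largest-subunit gene rpc-1 (45.1) and rpac-19 (31.5), which encodes a subunit shared with polymerase I, had one.

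Among 15 genes of tRNA processing and modification, 4 had a summit: the thiolation gene tut-2 (143), the pseudouridine synthase gene pus-1 (31.2), the Elongator gene elpc-2 (24.6) and the methyltransferase gene trmt-10A (22.5). Genes for the splicing ligase rtcb-1, the 3' end nuclease hoe-1 and the methyltransferase nsun-2 had none. The signal values at snpc-3.4, mafr-1 and tut-2 were above the highest value at any tRNA gene, 87.6 at W09D6.t1 and W09D6.t2. The list was chosen with earlier results of these data known, and its share was not tested.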

How the data were processed

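ChIP-seq of eGFP-F16B12.6 was analysed from the peak lists on ce11 of 2 biological replicates, whose separate biosamples the labels number. Per the deposited readme notes, each replicate's relaxed list came from its alignments and a control, the pooled relaxed list from both replicates, and the thresholded list (optimal peaks of the irreproducible discovery rate analysis) from these. The aligner, the peak caller, the threshold, the read depth and the handling of reads with several matches are not stated (not given in the sources used here). Lists on ce10 were not used.

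Without a header, the 10 columns were read by the usual layout of such files, column 7 as the signal value that the authors' caller gave and column 10 as the summit's offset from the start. The authors' deposited −log10 q values in column 9 were not used for ranking. Entries were ranked by signal value within each list. From the thresholded list the summit nearest a 5' end was taken. Best ranks in the relaxed lists are those of the entry with the highest signal value within the stated distance. Genes came from Ensembl release 115, and all 612 tRNA genes have the same coordinates in RefSeq, which gave the amino acid and the sequence. Coordinates are 1-based, and relative positions are negative upstream.

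The unit counted is a gene or a peak in 1 group of samples, so no p-value was computed. Shares have 95% Wilson intervals. The genes named are the 12 with the highest signal value within 500 bp, the 10 with the nearest summit, the 10 with the highest signal value outside promoter windows and the 5 with the best rank below the threshold. The members, the lists and this rule were chosen with earlier results of these data known. Alternatives were distance from the gene body, peak intervals, stronger peaks, single replicates, genes found once, 1 gene per cluster and other promoter windows. Python 3.11.15, NumPy 2.4.6, pandas 2.3.3, SciPy 1.17.1 and Matplotlib 3.10.9 were used, and the counting functions were tested on simulated data.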

Additional observations from a re-analysis of the deposited data

How the results depend on the processing

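In all, 48 alternatives were computed for 7 results, of which 33 stayed within 1.5 times the count or within the interval of the share, and 15 moved. With the stronger part of the thresholded list, split at its middle rank, 5 tRNA genes had a summit at each of 100, 200 and 500 bp, of which 3 lay in no promoter window, so that 40.0% of the 5 lay in one; the tRNA peaks begin at rank 670. Among the 143 genes with a sequence found once, which are fewer by construction, the counts were 10, 11 and 12 at 100, 200 and 500 bp, 9 in no promoter window and 58 with a pooled relaxed summit within 500 bp. As shares, the thresholded values were 6.99%, 7.69% and 8.39%, against 7.52%, 8.17% and 8.99% of all tRNA genes. The relaxed share was lower, at 40.6% against 53.6%. A promoter window of 2000 bp upstream left 25 genes outside a window and put 54.5% inside one, and 200 bp upstream put 3.64% inside. The share of the 55 genes with top entries in both replicates was 3.64% for the stronger part of the top entries and 89.1% for the 5000 strongest. Using 1 replicate alone gave 54 to 59 genes at 500 bp, 50 to 54 at 200 bp, 43 to 48 at 100 bp, 42 to 44 in no promoter window, 22.2 to 25.4% in one, and 305 to 328 with a relaxed summit. No paired analysis was possible because there is 1 group. Read depth is unknown, so which relaxed entries lie near detection cannot be stated.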
